A study of Mus musculus with 40 samples.

Results

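Transcripts of 10 genes of antigen presentation by the major histocompatibility complex (MHC) were measured in female 3xTg-AD mice after closed head injury, in RNA of the left somatomotor cortex. The genes were chosen by name: B2m, H2-D1, H2-K1, H2-T23, Tap1 and Tapbp on the class I side, and Cd74, H2-Aa, H2-Ab1 and H2-Eb1 on the class II side. All 10 were listed among the 55539 features of the count table, and 9 of them passed the filter on low counts that left 15224 features to test. H2-Ab1 did not pass, because 8 of its 39 values were under 10 counts, and its levels are given without a model fit.

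3xTg-AD mice are a model of Alzheimer's disease whose alleles include human APP and MAPT transgenes with familial mutations, and these animals were on a C57BL/6J background and 2 to 4 months old. Closed head injury (CHI) was delivered once a day under isoflurane by a weight dropped on the intact skull, and sham animals of the same genotype had the anesthesia without the impact, with all numbers of exposures to it pooled as 1 group. The groups were 1xCHI, 3xCHI and 5xCHI, each collected 0.5, 4 and 24 h after the last injury, 2xCHI and 4xCHI at 24 h, and sham. With sample 30 (3xCHI 4 h) left out, there were 4 sham, 10 1xCHI, 3 2xCHI, 9 3xCHI, 3 4xCHI and 10 5xCHI samples, and 2 to 4 samples in each combination of injury and time. All animals carried the transgenes, so none of the comparisons below addresses the genotype.

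Class I molecules sit on nearly every nucleated cell and show peptides from inside the cell to CD8 T cells. The heavy chains (H2-D1, H2-K1, H2-T23) pair with beta-2 microglobulin (B2m) in the endoplasmic reticulum, and tapasin (Tapbp) holds the empty pair beside the transporter (of which Tap1 is a part) that brings in the peptides. Class II molecules show peptides taken up from outside to CD4 T cells, and are made by professional antigen-presenting cells. In healthy brain these are mainly macrophages and dendritic cells at the borders of the tissue (meninges, perivascular space, choroid plexus), while resting microglia carry little class II.

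The promoters of these genes are shown because genes of both classes are known to share short control boxes, and because the levels below are compared between the classes. RefSeq promoter entries (250 bases before the start) were found for 8 of the 10 genes, and the last 150 bases before the start are printed for 2 genes of each class, 5′ to 3′ on the gene's own strand (GRCm38.p6). Capitals mark ATTGG or its complement CCAAT, and TGACG or its complement CGTCA, and the letters were searched on both strands. In H2-Aa, TGACG and CGTCA overlap.
B2m (chr2:122147537-122147686, plus strand): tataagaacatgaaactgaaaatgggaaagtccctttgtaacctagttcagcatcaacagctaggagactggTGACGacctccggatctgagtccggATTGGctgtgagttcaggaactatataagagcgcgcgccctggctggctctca
H2-K1 (chr17:34000348-34000497, minus strand): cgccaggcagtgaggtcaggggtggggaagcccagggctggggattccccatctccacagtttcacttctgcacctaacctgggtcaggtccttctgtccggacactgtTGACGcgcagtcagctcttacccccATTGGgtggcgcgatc
H2-Aa (chr17:34287824-34287973, minus strand): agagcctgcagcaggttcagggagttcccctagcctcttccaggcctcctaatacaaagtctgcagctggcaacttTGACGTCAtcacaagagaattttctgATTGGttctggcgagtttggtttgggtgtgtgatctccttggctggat
H2-Eb1 (chr17:34305717-34305866, plus strand): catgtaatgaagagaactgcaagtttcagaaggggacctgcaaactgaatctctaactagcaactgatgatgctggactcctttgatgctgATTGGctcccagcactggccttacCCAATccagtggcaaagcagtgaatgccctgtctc

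ATTGG, on either strand, was in the 250 bases of all 8 promoters with an entry, and in 34.5% of the 27025 RefSeq promoters of the same length, 1 per gene. TGACG was in 5 of the 8 (B2m, H2-D1, H2-K1, Tap1 and H2-Aa) and in 17.8% of all promoters. TGACG followed by ATTGG on the gene's strand, with at most 30 letters between them, was in 4 of the 8: 20 letters lay between the pair in B2m, H2-D1 and H2-K1, and 21 in H2-Aa. That arrangement was in 0.422% of all promoters. The motifs and the spacing were chosen after the sequences had been seen, and a match is a description of letters only.

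Class I transcripts were abundant and class II transcripts scarce in this tissue. Levels are given as CPM, the counts of a gene as a share of the library's counts, scaled by library size and a factor for composition, and are compared between genes only after division by the exon length of the gene's coding transcripts (CPM per kb). On that scale B2m had the highest median over the 39 samples, at 84.5, followed by H2-D1 at 18.0, H2-T23 at 14.6, H2-K1 at 14.4 and Tapbp at 8.04. Tap1 stood at 1.05, below Cd74 at 1.77 and close to H2-Aa at 0.906. H2-Ab1 had 0.722 and H2-Eb1 0.579. H2-T23 and H2-K1 differed by less than their spread between samples. In counts, the B2m values ran from 1020 to 2735 per sample, those of Cd74 from 21 to 244 and those of H2-Aa from 7 to 144, so counting error is a much larger share of each class II value. Totals per sample ran from 15925995 to 27859530 counts.

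Reads shared with paralogs bear on some of the heavy chains. The estimated count was not whole, which happens when reads are divided between similar genes, in 36 of 39 samples for H2-D1, in 15 for H2-T23 and in 1 for H2-K1, and in none for the other 7 genes. H2-D1 and H2-T23 are therefore less certain than the others.

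On the class I side, no gene was called against sham, and in most groups the values overlapped those of sham. H2-K1, a classical heavy chain, was at 26.9, 29.1, 29.1 and 30.9 CPM in the 4 sham samples. Its lowest, median and highest values were 17.9, 22.6 and 45.8 CPM in 1xCHI, 20.2, 24.8 and 52.1 in 3xCHI, and 17.1, 25.7 and 65.4 in 5xCHI. The 3 samples of 2xCHI, at 20.9, 23.0 and 23.2 CPM, all lay below the sham samples, as did those of 3.86% of all features and of no other tested member, and those of 4xCHI, at 24.8, 26.3 and 28.9, overlapped them. Relative to sham the log2 fold change of H2-K1 was -0.38 ± 0.33 (SE) in 2xCHI and 0.11 ± 0.25 in 5xCHI (adjusted p = 0.945 and 0.857).

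H2-D1, the other classical heavy chain here, gave 38.6, 40.2, 41.7 and 45.5 CPM in sham and 31.8, 44.1 and 110 (lowest, median, highest) in 5xCHI. Sham values thus fell inside the 5xCHI range, which was wide at both ends. B2m, the shared light chain, was at 69.2, 72.6, 75.8 and 76.3 CPM in sham and at 59.4, 77.6 and 127 in 5xCHI, with a log2 fold change of 0.13 ± 0.15. H2-T23, which encodes the nonclassical molecule Qa-1, had a log2 fold change of 0.08 ± 0.17 in 5xCHI.

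Of the peptide-loading genes, Tapbp came nearest to a difference. It was at 21.3, 22.1, 23.2 and 25.3 CPM in sham, at 21.6, 25.3 and 44.3 in 5xCHI, and 5 of the 10 5xCHI samples exceeded all sham samples. The log2 fold change was 0.29 ± 0.14. It was under 0.05 in edgeR's quasi-likelihood test before Benjamini-Hochberg adjustment over all 15224 features, and not after it (adjusted p = 0.427). Without sample 11 the log2 fold change was 0.19, and without samples 10 and 11 it was 0.13, both over 0.05 unadjusted. The unadjusted edgeR p was also over 0.05 with a covariate for sample number range (log2 fold change 0.18) or sample number (0.23), in a fit of the compared groups only, with filterByExpr and with library size scaling. Tap1 had 2.70, 2.70, 3.10 and 3.15 CPM in sham and 1.80, 3.25 and 5.03 in 5xCHI, a log2 fold change of 0.21 ± 0.20. All 6 class I genes had a positive fold change in 5xCHI, with a median log2 fold change of 0.17 beside 0.01 over all features tested. The 6 genes were correlated across samples and the comparisons share the sham samples, so the shared sign is a description. In the same comparison 14 of 15 microglial markers (median 0.57) and 5 of 6 astrocyte markers (median 0.12) were positive. The sign was not kept by H2-K1 or H2-T23 without sample 11, by B2m, H2-K1 or H2-T23 without samples 10 and 11, by H2-K1 and H2-T23 with a covariate for sample number range, or by H2-K1 with the sample number itself as a covariate.

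**Figure D1:**
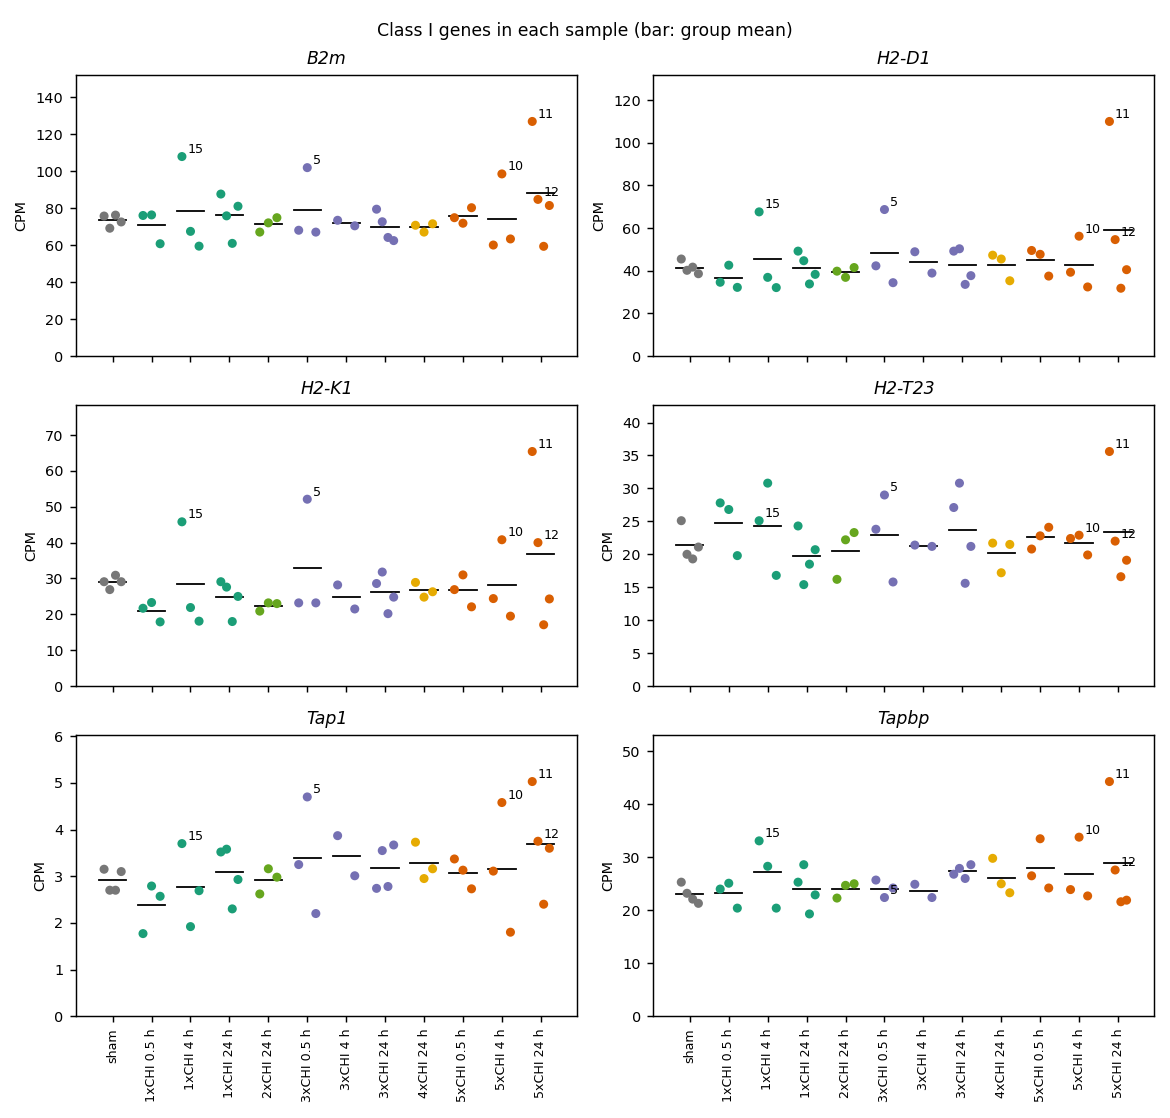
Class I genes in CPM (vertical axis, from 0) in each of 39 samples, by number of injuries and hours after the last (horizontal axis). Points are samples, colored by number of injuries, bars are group means, and samples 5, 10, 11, 12 and 15 are numbered; sample 11 is the highest for all 6 genes.

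On the class II side, the highest values came from a few samples. H2-Aa, the alpha chain of the I-A molecule, was at 0.733, 0.810, 1.21 and 1.30 CPM in sham. In 1xCHI 4 h the values were 0.609, 1.28 and 5.55 CPM, and in 3xCHI 24 h they were 1.61, 1.81, 2.01 and 5.45. Across 5xCHI, H2-Aa ran from 0.406 to 1.66 CPM with a median of 0.821. The upper values of the first of these groups came from sample 15 alone, whereas all 4 samples of 3xCHI 24 h lay above sham. That was so for 3 of 9 tested members (Tapbp, Cd74 and H2-Aa) and for 1.41% of all features.

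Cd74, the invariant chain that guides class II molecules through the cell, was also highest in samples 15 and 38. It was at 1.62, 2.43, 2.67 and 3.15 CPM in sham, at 1.47, 3.35 and 6.69 in 1xCHI 4 h and at 3.26, 4.24, 4.87 and 9.23 in 3xCHI 24 h. H2-Eb1, the beta chain of the I-E molecule, was at 0.677, 1.19, 1.24 and 1.92 CPM in sham and at 1.17, 1.53, 1.56 and 4.35 in 3xCHI 24 h, so that 3 of these 4 samples were inside the sham range. H2-Ab1, the beta chain of I-A, was at 0.594, 0.733, 0.818 and 1.36 CPM in sham and at 1.13, 1.15, 1.75 and 3.71 in 3xCHI 24 h. Its exact two-sided permutation p against sham was 0.981 in 1xCHI, 0.914 in 2xCHI, 0.548 in 3xCHI, 0.571 in 4xCHI and 0.795 in 5xCHI.

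**Figure D2:**
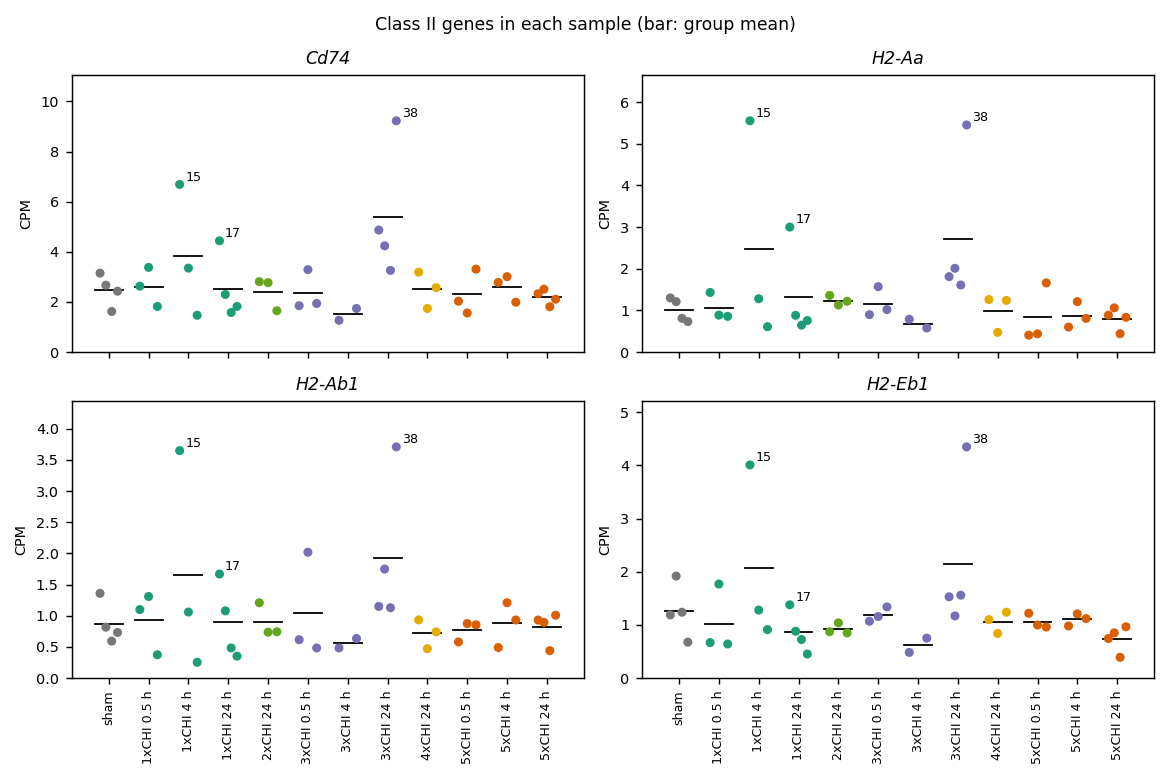
Class II genes in CPM (vertical axis, from 0) in each of 39 samples, laid out as for class I, with samples 15, 17 and 38 numbered. Samples 15 (1xCHI 4 h) and 38 (3xCHI 24 h) are the highest 2 for each of the 4 genes, and the means of their groups, drawn as bars, stand above every other sample of those groups.

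Each number of injuries, with times combined, was compared with sham to ask whether antigen presentation genes moved with injury. At an adjusted p under 0.05, 0 of 9 genes were called in any of the 5 comparisons, where the share of all features called was 0 too. At an unadjusted edgeR p under 0.05 the members called were 0 in 1xCHI, 0 in 2xCHI, 0 in 3xCHI, 0 in 4xCHI and 1 in 5xCHI (Tapbp), beside 17.1%, 4.48%, 3.88%, 1.68% and 11.6% of all features. The class II genes tested were positive in 3 of 3 in 3xCHI (median log2 fold change 0.53) and negative in 3 of 3 in 5xCHI (median -0.28), with standard errors from 0.37 to 0.53, and without sample 38 the 3xCHI value of H2-Eb1 was -0.16. Without sham sample 6 the 5xCHI value of Cd74 was 0.06. The standard errors were larger than each class II change in 5xCHI but that of H2-Eb1 (-0.44 ± 0.42).

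**Figure D3:**
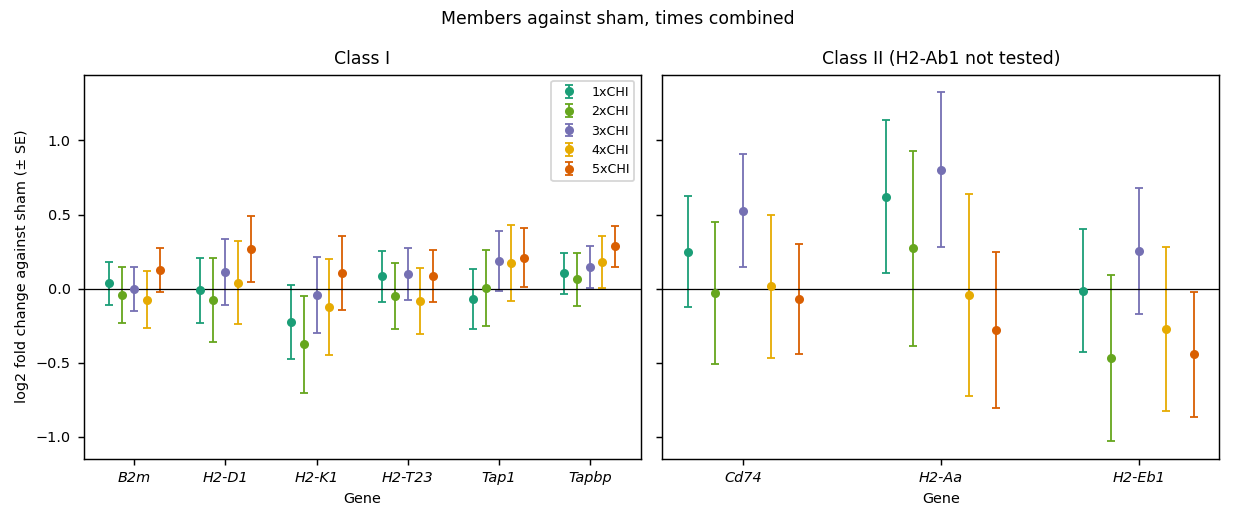
The log2 fold change against sham (vertical axis, with bars of ± 1 SE) of the 9 genes tested (horizontal axis), class I left and class II right, colored by number of injuries. Class II bars are longer than class I bars, and H2-Aa in 3xCHI has the highest point, at 0.80.

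The first injury was followed at 0.5, 4 and 24 h against sham. No member was called at an adjusted p under 0.05, and by unadjusted edgeR p only H2-Aa at 4 h was under 0.05 (log2 fold change 1.27 ± 0.57, adjusted p = 0.439). All features called at an unadjusted p were 19.5% at 0.5 h, 10.5% at 4 h and 5.98% at 24 h. Of the 3 samples at 4 h, sample 15 was above all sham samples for H2-Aa and sample 36 was below them. Without sample 15 the log2 fold change of H2-Aa was -0.12. Its unadjusted edgeR p was also over 0.05 with a covariate for sample number range (0.0829) and in a fit of the compared groups only (0.0849). The same held without sham sample 35 (0.0657) or 39 (0.0705). In this comparison all 8 meningeal markers were positive (median 0.94, 2 at an unadjusted edgeR p under 0.05), as were 4 of 5 border macrophage markers (median 0.49, 2 under 0.05). Without sample 15 these were 2 of 8 (median -0.21) and 1 of 5 (median -0.24).

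For the third injury the 2xCHI 24 h samples served as the pre-injury level. At 0.5 h and 4 h no member had an unadjusted edgeR p under 0.05 (all features 1.89% and 2.01%). At 4 h, with 2 samples, the class II log2 fold changes were negative: -0.68 ± 0.51 for Cd74, -0.85 ± 0.78 for H2-Aa and -0.57 ± 0.62 for H2-Eb1. At 24 h every 3xCHI sample was above every 2xCHI sample for Cd74, H2-Aa, H2-Eb1 and, on the class I side, Tapbp, which was the case for 3.79% of all features. In 2xCHI 24 h, Cd74 was at 1.65, 2.77 and 2.81 CPM, H2-Aa at 1.13, 1.22 and 1.36, and H2-Eb1 at 0.851, 0.873 and 1.04.

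The log2 fold changes at 24 h after the third injury were 1.16 ± 0.40 for Cd74, 1.15 ± 0.57 for H2-Aa and 1.24 ± 0.46 for H2-Eb1, each with an edgeR adjusted p of 0.947. Cd74 and H2-Eb1 were under 0.05 unadjusted (0.00683 and 0.0113), beside 4.57% of all features. The exact two-sided permutation p was 0.0571 for each of the 3, the smallest that 4 samples against 3 allow, and 0.171 for H2-Ab1. Without sample 38 the log2 fold changes were 0.76 for Cd74 and 0.62 for H2-Eb1, and 0.55 for H2-Aa, and the unadjusted edgeR p was 0.0663 for Cd74 and 0.173 for H2-Eb1. Some marker lists moved the same way in this comparison, with no marker at an adjusted p under 0.05. All 8 meningeal markers had positive log2 fold changes (median 0.94, 3 at an unadjusted edgeR p under 0.05). So did all 5 border macrophage markers tested (median 0.87, 1 under 0.05), and these 2 medians were 0.49 and 0.52 without sample 38. Of 15 microglial markers 14 were positive (median 0.31, 0 under 0.05). Medians were negative for endothelial (-0.16, 1 of 8 positive), dendritic cell and lymphocyte (-0.097, 0 of 2), blood (-0.18, 0 of 4) and choroid plexus markers (-0.33, 1 of 3). The microglial sums of the 4 samples, from 484.6 to 602.3 CPM, all lay above those of 2xCHI 24 h, from 419.6 to 463.0. The part of these cells in the class II differences was not tested.

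The fifth injury was compared with 4xCHI 24 h. No member had an unadjusted edgeR p under 0.05 at 0.5, 4 or 24 h, where 6.34%, 5.33% and 6.47% of all features did. At 24 h the class I side was led by H2-D1 (0.47 ± 0.29) and H2-K1 (0.46 ± 0.33), and the 4 samples of H2-D1 in 5xCHI 24 h, at 31.8, 40.5, 54.6 and 110 CPM, spanned those of 4xCHI 24 h (35.3, 45.5 and 47.3). Both changes shrank without sample 11, to -0.014 for H2-D1 and 0.027 for H2-K1, and with all samples kept and a covariate for sample number range, to 0.12 and 0.076 (0.24 and 0.21 with the sample number). Without sample 33 they were 0.67 and 0.70 instead (both under 0.05 unadjusted, edgeR adjusted p = 0.382 and 0.424), and without sample 34 they were 0.61 and 0.62. All 15 microglial markers were positive in this comparison (median 0.50, 7 at an unadjusted edgeR p under 0.05), as were all 6 astrocyte markers (median 0.19), and their part was not tested.

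Tests over several groups at once asked about time and number together. For any difference between times within 1xCHI, 3xCHI and 5xCHI, for any difference of injury number at 24 h, and for a time course that differed between the 3 numbers, the genes with an unadjusted edgeR p under 0.05 were Cd74, H2-Aa and H2-Eb1 each time, 3 of 9 members. All features stood at 4.22%, 4.63% and 2.65%. At an adjusted p under 0.05 the features called were 5 of 15224 for time (0.0328%), none of them a member, and 0 for the other 2 tests. The adjusted p of the 3 genes lay between 0.879 and 1. Without sample 38 the unadjusted p for injury number at 24 h was 0.219 for Cd74, 0.414 for H2-Aa and 0.214 for H2-Eb1. Without samples 15 and 38 the unadjusted p for time was 0.0750 for Cd74, 0.384 for H2-Aa and 0.120 for H2-Eb1, and that for a differing time course was 0.430 for H2-Aa and 0.0578 for H2-Eb1. Sample 38 alone took the p for time to 0.0651 for Cd74 and 0.191 for H2-Aa when it was left out. H2-Aa also lost these 2 differences when any of several other single samples was left out.

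The slope per injury, a log2 change for each added injury in a model that also held the time, was positive for all 6 class I genes (median 0.06) and negative for the 3 class II genes (median -0.09). Sham had its own level of time in that model, so the slope is a trend among injured samples and not a change from sham. The slope of H2-Aa was -0.21 ± 0.10 (adjusted p = 0.251), and those of Tap1 and H2-K1 were 0.07 ± 0.04 and 0.09 ± 0.05. No member was called at an adjusted p under 0.05, beside 308 features (2.02%), and 1 of 9 (H2-Aa) had an unadjusted edgeR p under 0.05, beside 18.0% of all features. Without sample 15 the slope of H2-Aa was -0.095, and without samples 15 and 38 it was -0.10. On the class I side the sign was not kept by B2m without sample 11 (-0.0046) or without samples 10 and 11 (-0.016), nor by H2-T23, whose slope lay close to 0, in those settings and several others, DESeq2 and both sample number covariates among them. Without samples 10 and 11 the slopes of H2-D1 and H2-K1 fell from 0.07 and 0.09 to 0.012 and 0.024.

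Spread between samples was wider in class II than in class I genes. The coefficient of variation over 39 samples was 18.1% for Tapbp, 18.6% for B2m, 20.5% for H2-T23, 23.3% for Tap1, 31.3% for H2-D1 and 35.1% for H2-K1, and 53.8% for Cd74, 65.3% for H2-Eb1, 72.3% for H2-Ab1 and 85.3% for H2-Aa, beside a median of 15.0% over all features tested, which were not matched for level. The class II figures include the counting error of low counts.

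The highest class I level and the highest class II level were in different samples. For each class the level of a sample was taken as the mean z-score of its genes on the log2 CPM scale. Sample 11 (5xCHI 24 h) had the highest class I level (3.06) and ranked 23 of 39 for class II (-0.29). Sample 38 had the highest class II level (2.89) and ranked 17 for class I (-0.05). Sample 15 was the second highest on both, at 1.55 and 2.66. Samples 5 (ranks 3 for class I and 6 for class II), 23 (6 and 4) and 17 (7 and 3) were also high on both.

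Across the 39 samples, Pearson's r between genes had a median of 0.635 over the 15 pairs within class I (0.273 to 0.935), 0.788 over the 6 pairs within class II (0.706 to 0.865) and 0.299 over the 24 pairs between them (0.143 to 0.474). These correlations are given as a description, since the genes of a sample share its library and scaling. The features most like the class I level were Psmb8, an immunoproteasome subunit (r = 0.903, Spearman's rho = 0.771), Apod (0.865, rho 0.828), Cd63 (0.855), Ctdsp1 (0.853) and Naprt (0.853). Without the 2 samples farthest from the median (11 and 15), r was 0.815 for Psmb8 and 0.770 for Apod. The features most like the class II level were Dcn, a proteoglycan of fibroblasts (r = 0.776, rho = 0.644), Gjb2 (0.719), Bicc1 (0.718), Zic4 (0.717) and Osr1 (0.712), and without samples 38 and 15 r was 0.589 for Dcn.

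Cell type markers moved with some of these samples. In samples 11 and 10 (5xCHI 4 h), Gfap, an intermediate filament of reactive astrocytes, was at 2419 and 1632 CPM, and the summed CPM of 15 microglial markers was 1314 and 1036, the highest 2 of 39 (median 463). Those sums were 399.5 to 454.6 in sham, 342.9 to 478.5 in 1xCHI, 419.6 to 463.0 in 2xCHI, 462.1 to 602.3 in 3xCHI, 419.6 to 478.1 in 4xCHI and 415.2 to 1314 in 5xCHI. The 6 neuronal markers summed to 4585 and 4992 CPM in samples 11 and 10, the lowest 2 of 39. Over the 39 samples Pearson's r of the microglial sum, as log2 of CPM plus 1, with the class I level was 0.658 (rho 0.328), and 0.263 without the 2 farthest samples. For Gfap r was 0.73 (rho 0.527, 0.519 without the 2 farthest) and for Cd68 0.729 (rho 0.515, 0.476 without them). The neuronal sum had -0.707 (rho -0.417, -0.45 without them). The sum of 6 astrocyte markers had 0.29 (rho -0.00648, 0.00495 without them). The part of these cells in the class I levels was not tested.

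The 2 samples with the most class II transcript had the most meningeal transcript. The 8 meningeal markers, such as Dcn and collagens, summed to 455.1 CPM in sample 15 and 252.2 in sample 38, the highest 2 of 39 (median 111.1), beside 99.3 to 167.2 in sham, 77.52 to 455.1 in 1xCHI, 90.6 to 111.5 in 2xCHI, 76.64 to 252.2 in 3xCHI, 54.59 to 205.0 in 4xCHI and 60.93 to 176.9 in 5xCHI. The 8 markers of border macrophages summed to 48.65 CPM in sample 38 and 44.9 in sample 15, again the highest 2 (median 22.4, sham 18.85 to 28.88). They were not tied to class II alone: sample 11, highest for class I, came next at 39.88 CPM, and over the 39 samples Pearson's r of this sum, as log2 of CPM plus 1, was 0.613 with the class I level and 0.627 with the class II level (0.641 and 0.384 without the 2 farthest samples, Spearman's rho 0.618 and 0.492). The other 3 samples of 3xCHI 24 h differed among themselves. Sample 37 was above all sham samples in both sums, at 179.5 CPM for meninges and 37.73 for border macrophages, whereas sample 2 (111.1 and 22.4) and sample 23 (90.1 and 22.19), which had the fourth highest class II level, were not. Of the 13 markers of dendritic cells and lymphocytes only 2 passed the filter, and Xcr1 was at 0 in 35 of 39 samples. Their sum ran from 12.93 to 22.45 CPM and ranked 26 and 24 in samples 15 and 38. It rests on few expressed genes, so it says little about these cells. Of the 6 markers of monocytes and neutrophils, none passed the filter, Ly6g was at 0 in all 39 samples, and the sum was highest in sample 38, at 4.43 CPM. Choroid plexus markers were highest in sample 31 (2507 CPM, median 20.88), whose class II level ranked 13. The part of meningeal tissue in the class II levels was not tested. In bulk tissue, fewer cells of a type and less RNA per cell cannot be told apart.

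**Figure D4:**
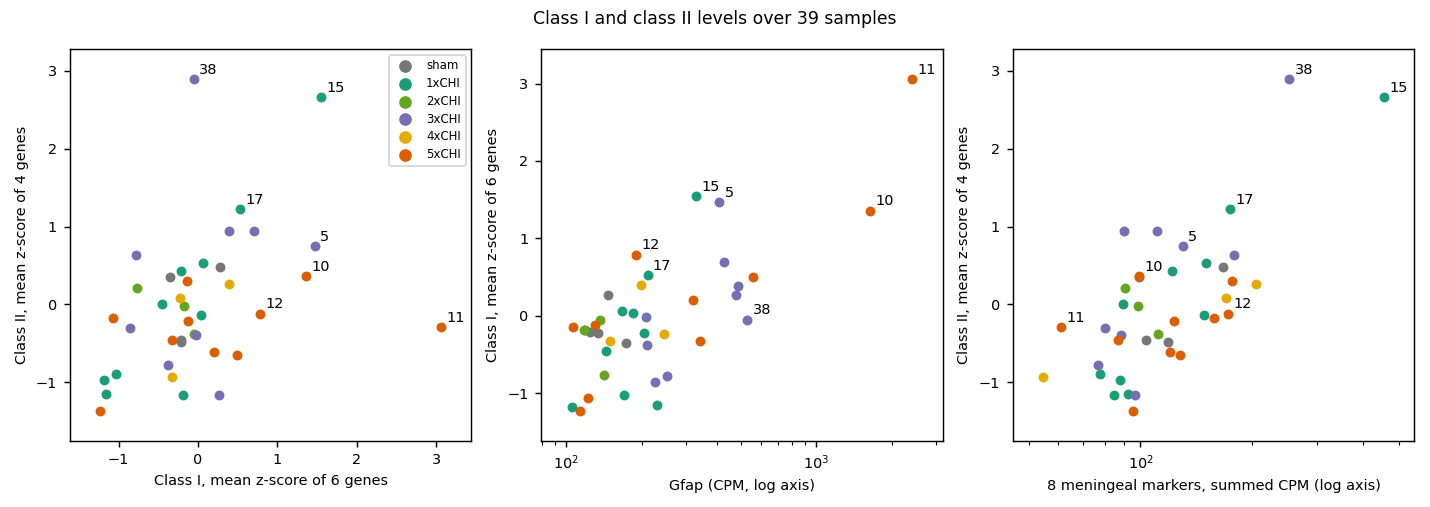
Mean z-score of the 4 class II genes against that of the 6 class I genes (left), class I against Gfap in CPM on a log axis (middle), and class II against the summed CPM of 8 meningeal markers on a log axis (right), for 39 samples colored by number of injuries. Sample 11 lies far right on the class I axis with a class II z-score of -0.29, and samples 15 and 38 lie at the top of the right panel.

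The samples numbered 1 to 18 and 19 to 40 were also described apart. The labels name no batch for these ranges, and a difference between them was not tested over all features. Only 1 of 4 sham samples, and none of 2xCHI and 4xCHI, was numbered 1 to 18, so the range and those groups cannot be told apart in full. In 5xCHI, H2-K1 had a median of 35.5 CPM in the 6 samples numbered 1 to 18 and 20.8 in the 4 others, and Tapbp 30.6 and 22.3, while the 3 sham samples numbered 19 to 40 had a median of 29.1 for H2-K1 and 22.1 for Tapbp. Within 19 to 40, therefore, all 4 5xCHI samples of H2-K1 (17.1 to 24.3 CPM) lay below those 3 sham samples (26.9 to 30.9), which was so for no other tested member and for 2.42% of all features. The same held in some other groups of that range: the 4 1xCHI samples (17.9 to 25.0 CPM) and the 3 2xCHI samples (20.9 to 23.2) also lay below these sham samples for H2-K1, whereas those of 3xCHI (20.2 to 31.8) and 4xCHI (24.8 to 28.9) overlapped them. In 1xCHI this was so for 2 of 9 tested members (H2-D1 and H2-K1) and for 2.98% of all features, and H2-Ab1, which was not tested, was lower there too (0.254 to 0.485 CPM, sham 0.594 to 0.818).

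Other genes of antigen presentation, listed by name, were tested in the same fits. Of 23 further class I genes 18 passed the filter, of 16 further class II genes 9, and of 25 interferon genes 19, and the class II regulator Ciita, the class I regulator Nlrc5 and the cytokine Ifng did not. In the comparisons with sham, with times combined, none was called at an adjusted p under 0.05. In 5xCHI the class II list had 9 of 9 positive log2 fold changes (median 0.39), with Ifi30, a lysosomal thiol reductase, at 0.77 ± 0.38 and Ctss, the protease that trims the invariant chain, at 0.68 ± 0.24, whereas the class II members were negative there. Microglial markers moved the same way as the list, with 14 of 15 positive (median 0.57) and 10 at an unadjusted edgeR p under 0.05. Without samples 10 and 11 the medians were 0.09 for the class II list and 0.19 for the microglial markers, and Ifi30 and Ctss were at 0.15 and 0.21. The part of microglial content in this list was not tested. The class I list had 11 of 18 positive (median 0.03) and the interferon list 12 of 19 (median 0.07), beside 0.01 over all features. Without sample 11 these were 9 of 18 (median -0.0064) and 8 of 19 (median -0.04). Irf8, a transcription factor of myeloid cells, was the highest of the interferon list in 5xCHI at 0.71 ± 0.25 (0.51 without sample 11, 0.27 without samples 10 and 11), and Iigp1, an interferon-induced GTPase, the lowest at -0.93 ± 0.44.

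In 1xCHI, Isg15, a ubiquitin-like interferon response protein, had 0.99 ± 0.42 and Oasl2 0.72 ± 0.48, and the lowest were the class I genes H2-Q4 (-0.67 ± 0.39) and H2-M3 (-0.52 ± 0.19). H2-Q4 was also among the lowest in 2xCHI (-1.04 ± 0.53, beside Iigp1 at -1.54 ± 0.63) and 3xCHI (-0.46 ± 0.39, beside the immunoproteasome subunit Psmb9 at -0.51 ± 0.32). The highest were the proteasome activators Psme1 and Psme2 in 2xCHI (0.21 ± 0.16 and 0.23 ± 0.20), Oasl2 and the class II peptide editor H2-DMb1 in 3xCHI (0.64 ± 0.49 and 0.50 ± 0.31), and Irf1 and Bst2 in 4xCHI (0.25 ± 0.17 and 0.26 ± 0.52), where Iigp1 (-0.51 ± 0.58) and Irf9 (-0.35 ± 0.21) were lowest. In 5xCHI, Gbp3 was second lowest at -0.53 ± 0.33. None of these passed the adjusted threshold.

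By time, the interferon list was described beside the class II members, and no test compared it with them. At 4 h after the first injury 16 of its 19 genes were positive against sham (median 0.33), and 7 of 19 had an unadjusted edgeR p under 0.05, beside 10.5% of all features. Without sample 15 these were 12 and 1 of 19 (median 0.17). At 24 h after the third injury 17 of 19 were positive against 2xCHI 24 h (median 0.52, and 0.54 without sample 38). Of the 19, 0 had an unadjusted edgeR p under 0.05, beside 4.57% of all features. The list was not high at these times alone: at 0.5 h after the third injury 15 of 19 were positive (median 0.71). Of these genes 4 had an unadjusted edgeR p under 0.05, beside 1.89% of all features. The class II members were at -0.03 (Cd74), -0.08 (H2-Aa) and 0.365 (H2-Eb1) in that comparison. At 0.5 h after the first injury 4 of 19 genes of the list were positive (median -0.27). No gene of the list was called at an adjusted p under 0.05 in these comparisons.

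Only the slope per injury called genes of these lists, 1 of 9 on the class II side and 1 of 19 on the interferon side, and none of 18 on the class I side, beside 2.02% of all features. Ctss rose by 0.15 ± 0.04 on the log2 scale for each added injury (edgeR adjusted p = 0.0492), and Irf8 by 0.17 ± 0.04 (adjusted p = 0.0425). Both calls were lost without samples 10 and 11, where the slopes were 0.04 and 0.06 (adjusted p = 0.190 and 0.189). When single samples were left out, the call of Ctss was lost in 28 of 39 cases and that of Irf8 in 12, and without sample 11 the slopes were 0.08 and 0.11. Among the microglial markers listed, Cx3cr1, Csf1r, C1qc, Trem2 and Fcrls were also called for the slope and rose. Ctss and Irf8 are also made by microglia, and the part of microglial content in their slopes was not tested.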

How the data were processed

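Bulk RNA from 40 left somatomotor cortices was sequenced by a company, and the authors deposited expected counts per gene (salmon layout, neither normalized nor filtered; 4.46% of values not whole); the processing notes name mm10, and the aligner settings are not given in the sources used here. Each sample came from 1 animal, and sample 30 was left out, as in the study. Counts were rounded, and a feature was tested where at most 4 of 39 samples had under 10 counts. edgeR 4.0.16 (TMM, quasi-likelihood, R 4.3.3) was fitted to all tested features in 3 models (number of injuries; injury by time; number with time), with Benjamini-Hochberg adjustment over all of them, and the script was tested on simulated data. CPM used TMM-scaled library sizes, and log2 CPM a prior count of 1. H2-Ab1 and the 24 h comparison after the third injury were also tested by exact two-sided permutation over samples. The p-values measure the spread between these samples. Positions are from GENCODE M21 and promoters from RefSeq (both GRCm38).

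The members, lists and the split between samples 18 and 19 were chosen with earlier results of these data known. All 10 members were named, with list genes past the adjusted threshold, the 2 highest and 2 lowest of the lists in each comparison with sham, and the 5 features most like each class. Alternatives were DESeq2 1.42.0, RLE factors, library size scaling, other filters, all 40 samples, only the compared groups, a robust fit, sample number covariates and leaving out each sample. Leaving out samples 15 and 38, or 10 and 11, was added after their values had been seen. An allele of the mouse line and a listed marker are not reported here.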

Additional observations from a re-analysis of the deposited data

Results flagged for a closer look

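Within groups of 4 to 10 samples, a sample far from the others by Dixon's criterion was found in 18 of 70 combinations of gene and group. The criterion's rate of 1 in 20 would give about 3.5, but that rate holds for normally distributed values. Here it was applied to CPM without logs, and all 18 were high values, so 3.5 is not a valid chance level. Genes of 1 class are correlated and the groups with times combined contain the groups by time, so the 18 are not independent.

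On the class I side the value was highest in sample 5 of 3xCHI for B2m (102 CPM, next 79.5), H2-D1 (68.7, next 50.3) and H2-K1 (52.1, next 31.8). Sample 15 of 1xCHI was high for H2-D1 (67.6, next 49.2) and H2-K1 (45.8, next 29.1). Sample 11 of 5xCHI was high for H2-D1 (110, next 56.2), H2-K1 (65.4, next 40.8) and H2-T23 (35.6, next 24.1).

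On the class II side sample 15 of 1xCHI was high for H2-Aa (5.55 CPM, next 3.00), H2-Ab1 (3.65, next 1.67) and H2-Eb1 (4.01, next 1.77). Sample 38 of 3xCHI was high for Cd74 (9.23, next 4.87), H2-Aa (5.45, next 2.01), H2-Ab1 (3.71, next 2.02) and H2-Eb1 (4.35, next 1.56), and for H2-Aa (5.45) and H2-Eb1 (4.35) within 3xCHI 24 h as well. In 1xCHI 24 h, sample 17 stood apart for H2-Aa (3.00, next 0.882).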

How the results depend on the processing

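The number of members called was 0 in the 18 comparisons under each of 445 combinations of comparison and alternative (12 alternatives and leaving out each of 39 samples in turn), with at most 4 members at an unadjusted p under 0.05. Some fold changes against sham, each with an adjusted p over 0.05, changed sign, and the cause was not tested. With the sample number range as a covariate these were, on the log2 scale, B2m in 1xCHI (-0.065) and 2xCHI (0.020), Cd74 in 2xCHI (0.011), H2-D1 in 2xCHI (0.041) and 3xCHI (-0.046), H2-K1 in 5xCHI (-0.14) and H2-T23 in 1xCHI (-0.032), 2xCHI (0.034) and 5xCHI (-0.026). With the sample number as a covariate they were B2m in 1xCHI (-0.0069), Cd74 in 4xCHI (-0.015), H2-D1 in 3xCHI (-0.082), H2-Eb1 in 1xCHI (0.019), H2-K1 in 5xCHI (-0.055), H2-T23 in 3xCHI (-0.015) and Tap1 in 2xCHI (-0.0091). Without samples 15 and 38 they were B2m in 1xCHI (-0.032) and 3xCHI (0.028) and H2-Eb1 in 3xCHI (-0.16). Without samples 10 and 11 they were B2m in 5xCHI (-0.029), H2-K1 in 5xCHI (-0.18) and H2-T23 in 5xCHI (-0.028). With library size scaling it was B2m in 3xCHI (0.0099).

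When single samples were left out, ranges crossed 0 in 18 of these fold changes. They ran from -0.034 to 0.074 in 1xCHI, -0.079 to 0.0051 in 2xCHI and -0.078 to 0.028 in 3xCHI for B2m, -0.18 to 0.18 in 2xCHI, -0.20 to 0.22 in 4xCHI and -0.23 to 0.055 in 5xCHI for Cd74 and -0.25 to 0.29 in 4xCHI for H2-Aa. They ran from -0.12 to 0.028 in 1xCHI and -0.039 to 0.16 in 4xCHI for H2-D1, -0.40 to 0.28 in 1xCHI, -0.16 to 0.56 in 3xCHI and -0.47 to 0.039 in 4xCHI for H2-Eb1 and -0.21 to 0.0097 in 3xCHI and -0.081 to 0.18 in 5xCHI for H2-K1. They ran from -0.15 to 0.10 in 2xCHI, -0.14 to 0.016 in 4xCHI and -0.011 to 0.16 in 5xCHI for H2-T23 and -0.058 to 0.084 in 2xCHI for Tap1. Features called for the slope per injury were 308 in the fit reported, 72 without samples 10 and 11, 150 with no filter, 464 with the range covariate, 610 with DESeq2, and from 65 (without sample 7) to 629 (without sample 31) when 1 sample was left out. Ctss lost its call in 5 of 11 other alternatives and Irf8 in 3. No paired analysis was possible because the samples share no replicate numbers between groups. Class II counts as low as 5 per sample limit what could be detected in those genes.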

Other observations

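Sample 30 (3xCHI 4 h), which enters no comparison above other than the alternative with all 40 samples, had 70.4 CPM of B2m, 38.8 of H2-D1, 17.4 of H2-K1, 18.0 of H2-T23, 1.86 of Tap1 and 21.6 of Tapbp after division by its library size. On the class II side it had 2.57 CPM of Cd74, 0.667 of H2-Aa, 0.619 of H2-Ab1 and 0.952 of H2-Eb1.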
